A study of Mus musculus with 9 samples.

Results

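Transcripts of 10 matricellular proteins and small proteoglycans were followed in cultured NRVMs, the ventricular cardiomyocytes of newborn rats, after overexpression of Nrf1 or Nrf2. The members were chosen by symbol, with earlier results of these data known, as the rows for *Fn1*, *Tnc*, *Thbs1*, *Ctgf*, *Postn*, *Sparc*, *Spp1*, *Dcn*, *Lum* and *Bgn*. All 10 were found among the 15122 genes listed in any of the 3 deposited tables. All cells came from Sprague-Dawley pups aged 1 to 2 days. After 48 h in culture they were infected at a multiplicity of infection of 50 with an adenovirus carrying LacZ (a bacterial enzyme that served as the control), mouse Nrf1 or mouse Nrf2, and the cells were collected 48 h later, with 3 libraries in each group. According to the study's methods, a CMV promoter drove each coding region in a vector that also encoded a red fluorescent protein, so all groups shared the virus and this reporter, and the promoter is not limited to cardiomyocytes. Nothing in the labels says that the libraries of a group came from separate cultures, so the p-values measure only the spread between these libraries, which may be technical.

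The extracellular matrix of the heart consists of structural fibres, such as collagens, and of secreted proteins that sit among them. Matricellular proteins are secreted glycoproteins that bind matrix, growth factors and cell surface receptors and tune adhesion and signalling rather than bear load, and many are made in development and again after cardiac injury. Fibronectin, encoded by *Fn1*, is a structural adhesive glycoprotein that is often treated beside them. Small leucine-rich proteoglycans, here decorin (*Dcn*), lumican (*Lum*) and biglycan (*Bgn*), carry glycosaminoglycan chains and bind collagen fibrils and growth factors. In the heart much of this matrix is made by fibroblasts, and cultures of NRVMs usually hold some of these and other non-myocytes.

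The values of single libraries were obtained by solving the deposited group means for whole numbers of reads. These numbers came to between 7960898 and 11960378 reads per library over all genes, and the libraries of each group are called A, B and C in falling order of depth, because they could not be tied to the numbers in the labels. Levels of single libraries are given below as normalized reads on 1 scale for all 9 libraries. Differences are given as log2(normalized reads + 1) with the SE of limma, and a gene is said to have risen or fallen where its adjusted p was under 0.05 and the ratio of its deposited group means was past 1.5-fold. The transgene product was visible for Nrf2: *Nfe2l2*, the gene of Nrf2, read 67556 to 78776 in the Nrf2 libraries against 3399 to 3493 with LacZ and 2815 to 2894 with Nrf1. The gene of Nrf1 was not analysed here, so the Nrf1 label has no such check in these transcript values. The study reports a western blot in which both proteins were overexpressed in NRVMs, at similar levels. All 13 cardiomyocyte markers measured were present, for example cardiac troponin T (*Tnnt2*) with a mean level of 34026 in LacZ.

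Library B of LacZ stood apart from A and C for several members. It read 1.16 higher than their mean on the log2 scale for *Lum*, 0.59 higher for *Dcn*, 0.57 higher for *Spp1* and 0.32 higher for *Postn*, whereas *Ctgf* differed by 0.01. Of 8393 genes whose mean over all libraries reached 100, 52 were past 1.5-fold from the other LacZ libraries in B, against 27 in A and 24 in C. The summed level of 10 leukocyte markers was 2917 in this library and 2021 and 2032 in A and C. The sum of 12 fibroblast markers outside the matrix was 27297 in B against 28938 and 27721. Most of the fibroblast sum came from *Vim* and *S100a4* (LacZ mean levels of 17856 and 5203), so it says little about the other fibroblast markers. Library B was also the lowest of LacZ in the sum of 13 cardiomyocyte markers (201138 against 232588 and 216708). The same held for 7 smooth muscle markers (33385 against 40048 and 36818). Whether these marker sums bear on the members was not tested. The values of the members are given with and without this library where it moves them.

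Of the adhesive glycoproteins, *Tnc* fell the most with Nrf1. Tenascin-C, its product, is a modulator of cell adhesion that is made during development and wound repair. *Tnc* read 8647, 9426 and 8772 normalized reads in LacZ libraries A, B and C. With Nrf1 it read 1782, 1843 and 1762, and with Nrf2 it read 3716, 3766 and 3830. The 3 groups were fully separate, with LacZ highest and Nrf1 lowest. Its deposited mean with Nrf1 was 20.0% of that in LacZ, a log2 difference of -2.32 ± 0.04 (SE, adjusted p = 5.9e-16). With Nrf2 it was 42.2% of LacZ, a log2 difference of -1.24 ± 0.04 (adjusted p = 2.3e-12).

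*Fn1* showed the other order. It read 102403, 100564 and 102452 in LacZ, 76775, 80107 and 74430 with Nrf1, and 45340, 44067 and 46838 with Nrf2. No library of 1 group reached the range of another, and Nrf2 was lowest. *Fn1* fell with Nrf2 to 44.6% of LacZ (log2 difference -1.16 ± 0.03, adjusted p = 1.2e-12). With Nrf1 its mean was 75.6% of LacZ, a log2 difference of -0.40 ± 0.03 that had an adjusted p of 3.9e-08 but did not reach 1.5-fold. *Fn1* in LacZ was the single gene of the tables for which 2 sets of whole reads matched the group means at first, and the mean of the pair settled which one was used.

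*Postn* encodes periostin, a matricellular protein of valve and fibroblast lineages that binds collagen and integrins. Its levels were 4074, 5162 and 4223 in LacZ, 1373, 1376 and 1314 with Nrf1, and 2100, 1926 and 2633 with Nrf2. The Nrf1 libraries lay close together and below all others, whereas library C of Nrf2 stood above A and B. The Nrf1 mean was 30.1% of LacZ (log2 difference -1.72 ± 0.07, adjusted p = 2.7e-12) and the Nrf2 mean 49.5% (-1.02 ± 0.10, adjusted p = 6.4e-07). Without LacZ library B the differences were -1.62 for Nrf1 and -0.91 for Nrf2, both still past 1.5-fold.

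*Sparc* encodes osteonectin, which binds collagen and calcium. It read 45894, 41514 and 44303 in LacZ, 26972, 27082 and 26915 with Nrf1, and 33696, 32402 and 34316 with Nrf2. The groups did not overlap and the order was again LacZ, Nrf2, Nrf1. *Sparc* fell with Nrf1 to 61.4% of LacZ (log2 difference -0.70 ± 0.04, adjusted p = 1.1e-10). Its mean with Nrf2 was 76.3% of LacZ (-0.39 ± 0.04, adjusted p = 1.0e-06), short of 1.5-fold.

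*Spp1*, the gene of osteopontin, a secreted integrin ligand that macrophages and injured myocardium make, depended on LacZ library B. It read 1795, 2640 and 1751 in LacZ, 1307, 1394 and 1330 with Nrf1, and 1461, 1500 and 1695 with Nrf2. The groups did not overlap, but library C of Nrf2 came near to the lowest LacZ library. Over all libraries the Nrf1 mean was 65.0% of LacZ, which passed 1.5-fold (log2 difference -0.59 ± 0.11, adjusted p = 0.00013). Without LacZ library B it no longer did, with a log2 difference of -0.40 ± 0.04 (adjusted p = 1.9e-07). The Nrf2 mean was 75.3% of LacZ (-0.39 ± 0.11, adjusted p = 0.011), and without LacZ library B the difference was -0.19 ± 0.05 (adjusted p = 0.0086).

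*Ctgf* and *Thbs1* are regulated by growth factors and mechanical stress: connective tissue growth factor acts beside TGF-beta in scar formation, and thrombospondin 1 is an adhesive glycoprotein that can activate latent TGF-beta. *Ctgf* read 17664, 17830 and 17783 in LacZ and 18020, 18141 and 18097 with Nrf1. The Nrf1 mean was 102% of LacZ (log2 difference 0.02 with a 95% interval from -0.04 to 0.09, adjusted p = 0.48), so these neighbours in order of level were not told apart by the test, although their ranges did not overlap. With Nrf2, *Ctgf* read 11181, 11220 and 12130 and fell to 64.9% of LacZ (-0.63 ± 0.04, adjusted p = 2.9e-09).

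*Thbs1* read 14534, 14793 and 14466 in LacZ, 12548, 12747 and 11910 with Nrf1, and 10032, 10008 and 10081 with Nrf2. All libraries were ordered by group, with Nrf2 lowest. The Nrf1 mean was 84.8% of LacZ (-0.24 ± 0.03, adjusted p = 1.2e-05) and the Nrf2 mean 68.8% (-0.54 ± 0.03, adjusted p = 2.1e-09). Neither difference reached 1.5-fold.

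**Figure D1:**
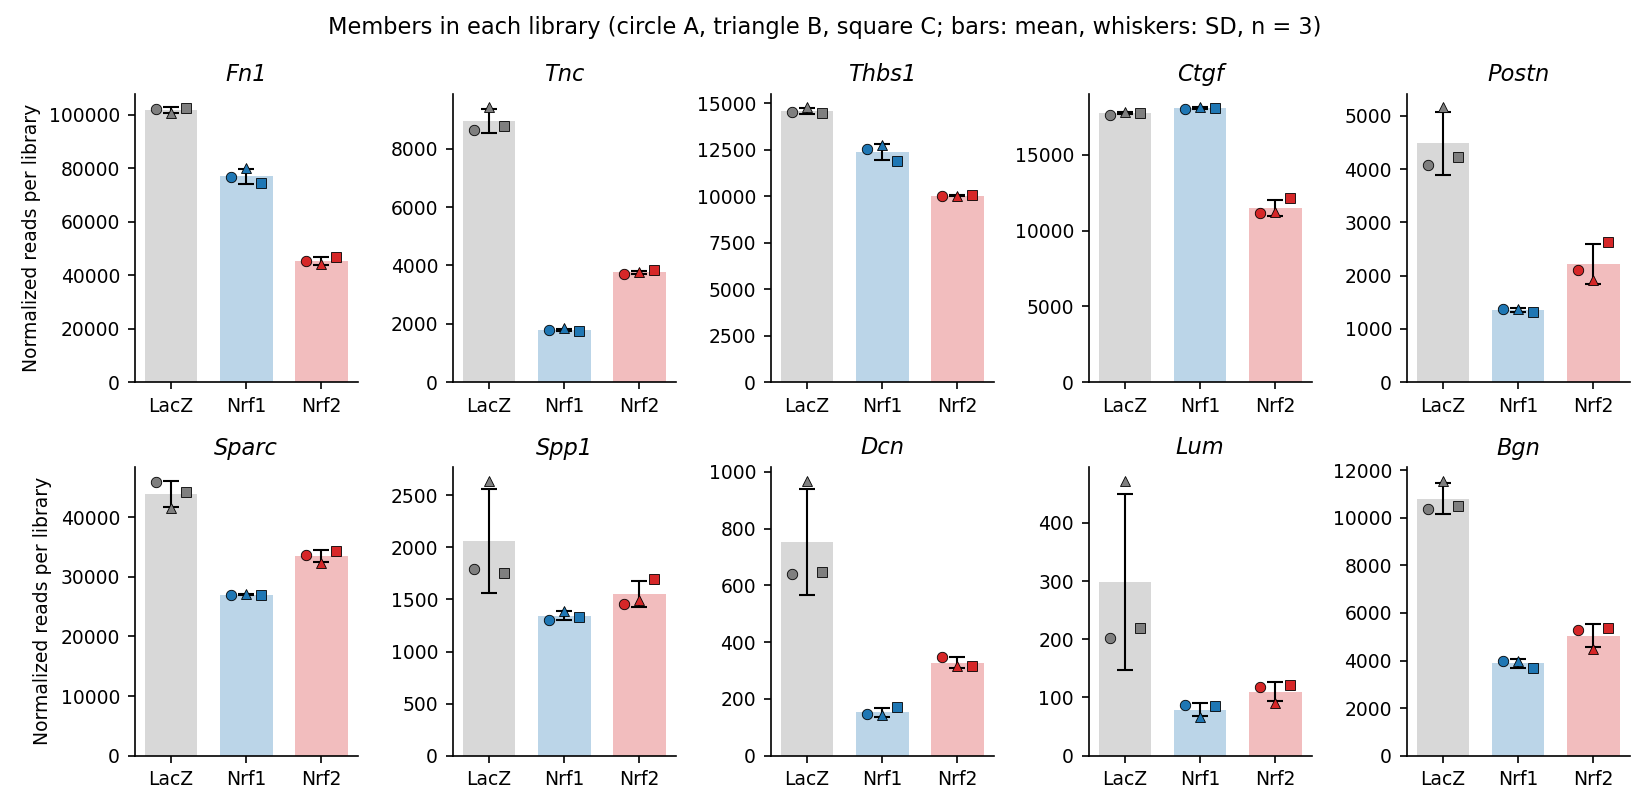
Level of each of the 10 members as normalized reads per library (vertical axis from 0, 1 scale for all 9 libraries), with the 3 libraries of each group as points, the mean as a bar and the SD as whiskers (n = 3). In 9 of the 10 panels both overexpression groups lie below LacZ, and in the *Ctgf* panel Nrf1 lies at 102% of LacZ; the LacZ triangle (library B) stands high for *Lum*, *Dcn*, *Spp1* and *Postn*.

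The small proteoglycans all fell in both comparisons with LacZ. Decorin, the product of *Dcn*, binds collagen and TGF-beta and is a usual product of fibroblasts. *Dcn* read 640, 969 and 648 in LacZ, 146, 143 and 172 with Nrf1, and 349, 317 and 317 with Nrf2. LacZ library B was the highest, and each group kept its own range. Its mean was 20.4% of LacZ with Nrf1 (log2 difference -2.26 ± 0.13, adjusted p = 2.6e-10) and 43.5% with Nrf2 (-1.17 ± 0.12, adjusted p = 1.3e-06). Without LacZ library B the differences were -2.07 ± 0.09 and -0.97 ± 0.07.

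*Lum* had the fewest reads of the members, between 68 and 421 per library, and the widest spread in LacZ. Lumican organises collagen fibrils. Its levels were 203, 473 and 219 in LacZ, 87.1, 66.3 and 84.6 with Nrf1, and 118, 91.0 and 121 with Nrf2. The SD in LacZ was 50.7% of the mean, and library B lay far above the other LacZ libraries. Its mean was 26.6% of LacZ with Nrf1 (log2 difference -1.80 ± 0.23, adjusted p = 4.3e-06) and 36.8% with Nrf2 (-1.33 ± 0.23, adjusted p = 0.00022). Without LacZ library B these differences were smaller, -1.41 ± 0.14 and -0.94 ± 0.13, and still past 1.5-fold.

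*Bgn*, whose product biglycan binds collagen and can signal through Toll-like receptors, read 10367, 11559 and 10505 in LacZ. With Nrf1 it read 3985, 3974 and 3670, and with Nrf2 it read 5265, 4493 and 5388. The 3 groups did not overlap, and LacZ library B was only slightly above A and C. The Nrf1 mean was 35.8% of LacZ (-1.48 ± 0.04, adjusted p = 1.9e-13) and the Nrf2 mean 46.7% (-1.10 ± 0.06, adjusted p = 1.4e-09).

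Because the members were chosen with earlier results of these data known, the counts set beside all genes below are a description only. Counted together, 7 of the 10 members fell with Nrf1 (*Tnc*, *Dcn*, *Lum*, *Postn*, *Bgn*, *Sparc* and *Spp1*), against 17.1% of all 11434 genes tested, and 0 rose, against 11.4% of all genes. None was higher at an unadjusted p under 0.05 either (limma, 0 members). At an adjusted p under 0.05 and any fold, 0 were higher in limma, against 34.3% of all genes. Without LacZ library B the count that fell was 6, the difference being *Spp1*. At any fold, 9 members were lower at an adjusted p under 0.05, against 32.5% of all genes. The Nrf1 libraries lay wholly below LacZ for 9 members, against 34.4% of all genes, and wholly above it for *Ctgf*, against 36.2% of all genes. The median log2 difference of the members was -1.09, and that of all genes tested was 0.00.

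With Nrf2, 7 of the 10 members fell (*Lum*, *Tnc*, *Dcn*, *Fn1*, *Bgn*, *Postn* and *Ctgf*), against 9.70% of all 11603 genes tested, and 0 rose, against 9.19%. Here too 0 members were higher at an unadjusted p under 0.05 in limma. At an adjusted p under 0.05 and any fold, 0 were higher, against 28.6% of all genes. Leaving out LacZ library B left the count that fell at 7. At any fold, all 10 members were lower at an adjusted p under 0.05, against 26.0% of all genes. The Nrf2 libraries lay wholly below LacZ for all 10, against 30.0% of all genes. The median of the members was -1.06 and that of all genes 0.00. The comparisons share their LacZ libraries, so their values for the members are set side by side and not counted as separate evidence. The 10 members together took 2.17% to 2.20% of all reads recovered in the LacZ libraries, 1.42% to 1.49% with Nrf1 and 1.11% to 1.18% with Nrf2. *Fn1* makes up much of that share, with mean levels of 101806 in LacZ, 77104 with Nrf1 and 45415 with Nrf2. The order of the shares is therefore not that of most members, 7 of which were lower with Nrf1 than with Nrf2.

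**Figure D2:**
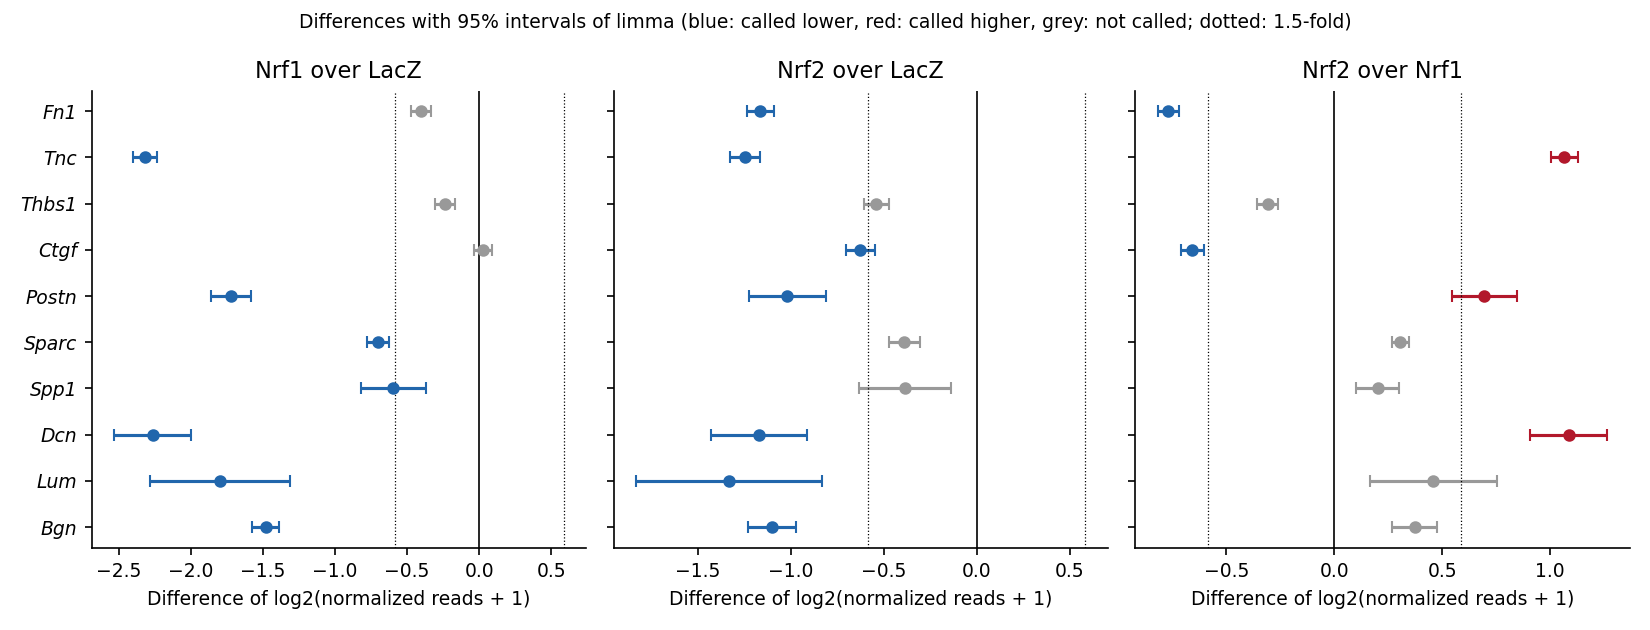
Difference of log2(normalized reads + 1) for each member in the 3 comparisons, as points with 95% intervals of limma (horizontal axis, with dotted lines at 1.5-fold). In the comparisons with LacZ the members that fell lie left of the dotted line, with *Tnc* at -2.32 for Nrf1 and -1.24 for Nrf2, and in the third panel *Tnc*, *Dcn* and *Postn* lie to the right and *Fn1* and *Ctgf* to the left.

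The direct comparison of Nrf2 with Nrf1, in its own table, divided the members. *Tnc*, *Dcn* and *Postn* were higher with Nrf2, 3 of 10 members against 11.3% of all 11487 genes tested. Their log2 differences were 1.07 ± 0.03 for *Tnc* (adjusted p = 1.4e-15), 1.09 ± 0.08 for *Dcn* (adjusted p = 3.8e-09) and 0.70 ± 0.07 for *Postn* (adjusted p = 1.8e-07). *Postn* rested on library C of Nrf2, without which it was 0.56 ± 0.04 and no longer past 1.5-fold, leaving 2 members. *Fn1* and *Ctgf* were lower with Nrf2, 2 of 10 members against 4.70% of all genes, by -0.77 ± 0.02 for *Fn1* (adjusted p = 5.8e-15) and -0.66 ± 0.03 for *Ctgf* (adjusted p = 1.9e-13).

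The other 5 members differed between Nrf2 and Nrf1 by less than 1.5-fold. At any fold, 7 members were higher with Nrf2 at an adjusted p under 0.05, against 28.8% of all genes, and 3 were lower, against 29.8%. By the ranges of the same libraries, 7 members lay wholly above Nrf1, against 31.4% of all genes, and 3 wholly below, against 32.3%. Both counts of 3 lay near the shares over all genes. *Bgn* was 0.37 ± 0.05 higher, *Sparc* 0.31 ± 0.02 higher and *Thbs1* differed by -0.31 ± 0.02. *Spp1* was 0.20 ± 0.05 higher (adjusted p = 0.0014), which became 0.099 for the adjusted p when all 9 libraries were fitted together. For *Lum* the difference was 0.46 ± 0.14 (adjusted p = 0.0089), with adjusted p = 0.085 in the fit of all 9 libraries and 0.056 without library B of Nrf1. Both orders were thus seen among the glycoproteins, while the 3 small proteoglycans were each lowest with Nrf1.

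The position of each member in the pair of log2 ratios to LacZ was set beside all 8691 genes that reached a mean of 100 in a group. *Tnc* and *Dcn* lay 0.052 apart, and no gene other than *Dcn* was as near to *Tnc*. The gene nearest to *Dcn* was *Siglec1*, a macrophage lectin, at a distance of 0.048. For *Postn* it was *Fat4*, a large cadherin, at 0.032, and for *Lum* it was *Plac9* at 0.066. *Bgn* was nearest to *Rps19*, which encodes a ribosomal protein, at 0.040.

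Among the members that fell less, *Sparc* was nearest to *Etv5*, an ETS transcription factor, at 0.0090, and *Spp1* to *Spry1*, an inhibitor of receptor tyrosine kinase signalling, at 0.0080. *Thbs1* was nearest to *St3gal4*, a sialyltransferase, at 0.014, and *Ctgf* to *Adamts1*, a secreted matrix protease, at 0.016. *Fn1* was the most isolated by this measure: its nearest gene, *Angptl2*, a secreted angiopoietin-like protein, was 0.10 away. The distance rests on the means of 9 libraries and on 1 LacZ mean per table, so the coordinates of a gene are not independent of each other.

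**Figure D3:**
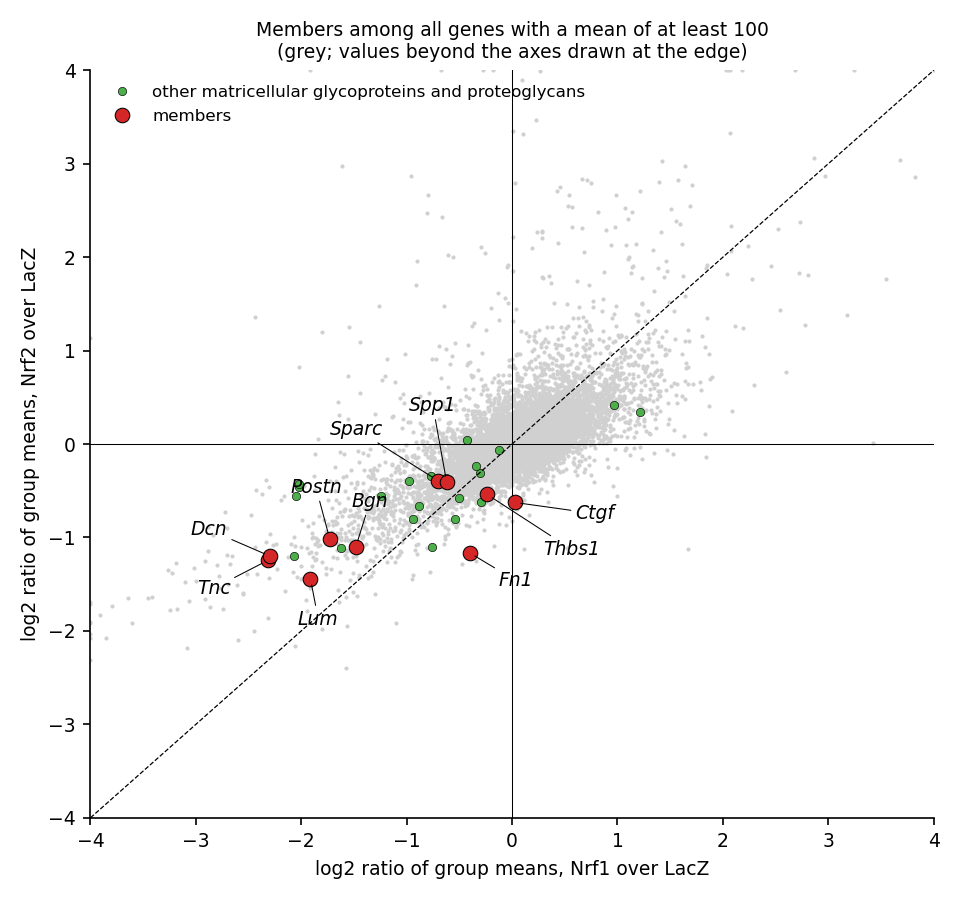
The log2 ratio of the deposited means for Nrf1 over LacZ (horizontal axis) and Nrf2 over LacZ (vertical axis), with the members in red, other matricellular glycoproteins and proteoglycans in green and all 8691 genes that reached a mean of 100 in grey. Among the members, *Tnc* and *Dcn* lie together furthest to the left, above the diagonal, where the ratio is lower for Nrf1, and *Fn1*, *Thbs1* and *Ctgf* lie below it.

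Related genes were read from lists of the same and neighbouring classes, also chosen with earlier results of these data known. The medians over all genes tested were 0.003 for Nrf1 and -0.002 for Nrf2. Of 20 other matricellular glycoproteins 15 could be tested for Nrf1. Of these, 8 fell and 3 rose, against 17.1% and 11.4% of all genes, with a list median of -0.94. Leaving out LacZ library B gave 9 that fell, *Wisp2* being added. *Nov*, a relative of *Ctgf*, had a mean of 427 with Nrf1 and 1732 with LacZ (-2.02 ± 0.05), and *Thbs2*, a thrombospondin, 171 and 526 (-1.60 ± 0.11). *Tgfbi*, a TGF-beta-induced adhesion protein, rose from 256 to 594 (1.22 ± 0.07). The other genes that rose were *Comp* (1.85 ± 0.25, from a mean of 10.9) and *Spock2* (0.98 ± 0.16), whose means were below 100 and which were named after their values were seen.

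For Nrf2, 16 of these glycoproteins could be tested. Of these, 6 fell and 2 rose, against 9.70% and 9.19% of all genes, with a list median of -0.39. *Thbs2* fell by 1.10 ± 0.11 on the log2 scale, *Smoc1*, a relative of *Sparc*, by 1.01 ± 0.18 and *Wisp2*, a relative of *Ctgf*, by 0.80 ± 0.10. The genes that rose, again named after their values were seen, were *Comp* (2.07 ± 0.24) and *Spock1* (1.05 ± 0.39, with means of 11.7 and 5.14).

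Of 13 other small leucine-rich proteoglycans, 8 were matched in the tables, and of these 2 could be tested for Nrf1 and 3 for Nrf2, the others having means under 10. The unmatched ones were not analysed here. *Prelp*, a collagen-binding relative, had means of 73.4 with Nrf1 and 308 with LacZ, and fell with Nrf1 (-2.06 ± 0.10) and with Nrf2 (-1.19 ± 0.08). *Fmod*, the gene of fibromodulin, fell with Nrf1 (-0.59 ± 0.15, adjusted p = 0.0029), was short of 1.5-fold without LacZ library B (-0.43 ± 0.15), and differed with Nrf2 by -0.35 ± 0.17 (adjusted p = 0.10). *Ogn*, the gene of osteoglycin, passed the test for Nrf2 on 14, 131 and 1 reads in libraries A, B and C against 4, 0 and 1 in LacZ, so nearly all of its reads came from 1 library, and without LacZ library B it did not pass (adjusted p = 0.13).

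Of the large, basement membrane and cell surface proteoglycans, 14 of 18 could be tested. With Nrf1, 10 fell, against 17.1% of all genes, and *Gpc1*, a glypican, rose (0.96 ± 0.03), with a list median of -0.83. *Vcan*, the gene of versican, a large chondroitin sulphate proteoglycan of the developing heart, fell to a mean of 1307 from 5417 (-2.05 ± 0.05). *Acan*, its relative of cartilage, went from 234 to 57.8 (-2.02 ± 0.14), and *Agrn*, of basement membranes, from 1140 to 482 (-1.24 ± 0.05). With Nrf2, 3 of the 14 fell, against 9.70% of all genes, with a median of -0.46. These were the glypicans *Gpc3* (-1.10 ± 0.06), *Gpc4* (-0.66 ± 0.05) and *Gpc2* (-1.11 ± 0.24). The syndecan *Sdc4* was just past 1.5-fold in log2 difference (-0.59 ± 0.08) but not in the ratio of its means, 523 with Nrf2 and 784 with LacZ.

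Receptors of the members and of the matrix around them were read too. With Nrf1, 9 of 15 receptors tested fell, against 17.1% of all genes, and the median was -0.65. *Cd36*, a receptor for thrombospondin, rose with Nrf1 (0.86 ± 0.08). With Nrf2, 8 of 15 fell, against 9.70% of all genes, with a median of -0.60. The counts that fell without LacZ library B were 8 and 8, *Itga8* being short of 1.5-fold for Nrf1. *Itga4*, an integrin subunit that binds fibronectin and osteopontin, had the largest drop in both, with differences of -1.95 ± 0.09 for Nrf1 and -1.66 ± 0.09 for Nrf2. *Cd47*, a receptor for thrombospondin 1, fell by 1.58 ± 0.06 on the log2 scale with Nrf1, and *Lrp1*, an endocytic receptor, by 1.41 ± 0.04. With Nrf2, *Ddr2*, a collagen receptor, fell by 0.95 ± 0.06 and *Itgb3*, a subunit of the vitronectin receptor, by 0.85 ± 0.11. *Ddr2* is also counted among the fibroblast markers below.

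Of the enzymes that build glycosaminoglycan chains, most did not pass the test. With Nrf1, 4 of 19 tested fell and 2 rose, against 17.1% and 11.4% of all genes. With Nrf2, 2 of 20 fell and 2 rose, against 9.70% and 9.19%. The counts of this list thus lay near the shares over all genes, and its medians were -0.25 and -0.10. *Chpf2*, a chondroitin polymerising factor, rose in both (1.38 ± 0.05 with Nrf1 and 1.10 ± 0.05 with Nrf2). *Chst12*, a chondroitin sulphotransferase, rose with Nrf2 from a mean of 80.8 to 193 (1.26 ± 0.13). *Dse*, which makes dermatan sulphate, the chain that decorin and biglycan can carry, fell with Nrf1 (-0.86 ± 0.06) and with Nrf2 (-0.88 ± 0.06). *Chst14*, a sulphotransferase of dermatan sulphate, also fell with both (-0.89 ± 0.19 and -0.81 ± 0.15). *Chst11*, a chondroitin sulphotransferase, fell with Nrf1 (-0.87 ± 0.11), and its difference with Nrf2 was -0.44 ± 0.11, short of 1.5-fold.

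Most markers of fibroblasts, endothelium and leukocytes fell beside the members, whereas the sum of smooth muscle markers was higher with overexpression. In bulk samples fewer cells of a type and less RNA per cell cannot be told apart. Of 12 fibroblast markers outside the matrix, 8 fell with Nrf1 and 7 with Nrf2, against 17.1% and 9.70% of all genes, while *Pdpn* rose with Nrf1. These counts were 8 and 6 without LacZ library B, the difference being *Twist1*. Their summed level ranged from 27297 to 28938 in LacZ, from 24445 to 24946 with Nrf1 and from 24165 to 25534 with Nrf2. *Vim*, which many cell types express, makes up much of that sum, with mean levels of 17856, 14127 and 14794. The surface marker *Thy1* had mean levels of 807 in LacZ, 277 with Nrf1 and 473 with Nrf2, and the receptor *Pdgfra* of 244, 88.3 and 185. These were ordered as *Tnc* and *Dcn* were, but not all fibroblast markers were: the transcription factor *Tcf21* had mean levels of 76.8, 40.8 and 21.6 and fell further with Nrf2 than with Nrf1 (log2 difference of Nrf2 over Nrf1 -0.92 ± 0.23, adjusted p = 0.0024), and *S100a4* had levels of 5203, 7754 and 6927, short of 1.5-fold against LacZ.

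Endothelial markers fell in 7 of 9 cases with Nrf1 and 6 of 9 with Nrf2, against 17.1% and 9.70% of all genes. Their sum was 4958 to 5016 in LacZ, 2877 to 2961 with Nrf1 and 2676 to 3053 with Nrf2. In each, 7 of 9 fell without LacZ library B, *Vwf* being added for Nrf2. Leukocyte markers fell in 8 of 9 tested cases in each comparison, against the same shares of all genes. Their sums were 2021 to 2917 in LacZ, 1162 to 1214 with Nrf1 and 1146 to 1222 with Nrf2. Without LacZ library B the same count fell in each, and *Csf1r* rose with Nrf1 (0.62 ± 0.09). The sum of 7 smooth muscle and myofibroblast markers was higher with overexpression, 33385 to 40048 in LacZ, 59788 to 60704 with Nrf1 and 47718 to 51066 with Nrf2. With Nrf1, *Acta2* and *Tagln*, whose levels make up most of that sum, rose (0.84 ± 0.05 for each), whereas *Myh11* (-1.01 ± 0.04) and *Mylk* (-0.72 ± 0.09) fell, and the list median was -0.01. The study uses *Acta2* to mark a population of immature cardiomyocytes, so this gene is not particular to non-myocytes. With Nrf2, *Cnn1* rose (0.82 ± 0.04), the others did not reach 1.5-fold and the median was 0.36. Cardiomyocyte markers summed to between 201138 and 232588 in LacZ, 198399 and 200843 with Nrf1 and 227161 and 230592 with Nrf2. Within that sum, 4 of 13 fell with Nrf1, against 17.1% of all genes. These were *Myh7* (-1.07 ± 0.04), *Myl2* (deposited means of 4689 and 9375), *Tnni3* (-0.96 ± 0.04) and *Nppa* (-0.62 ± 0.05). *Ryr2* (0.83 ± 0.04) and *Actc1* (0.64 ± 0.06) rose with Nrf1, the latter falling short of 1.5-fold without LacZ library B. With Nrf2 all 13 stayed within 1.5-fold of LacZ. No marker listed was at 0 in every library. The part of these cell types in the members' differences was not tested.

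**Figure D4:**
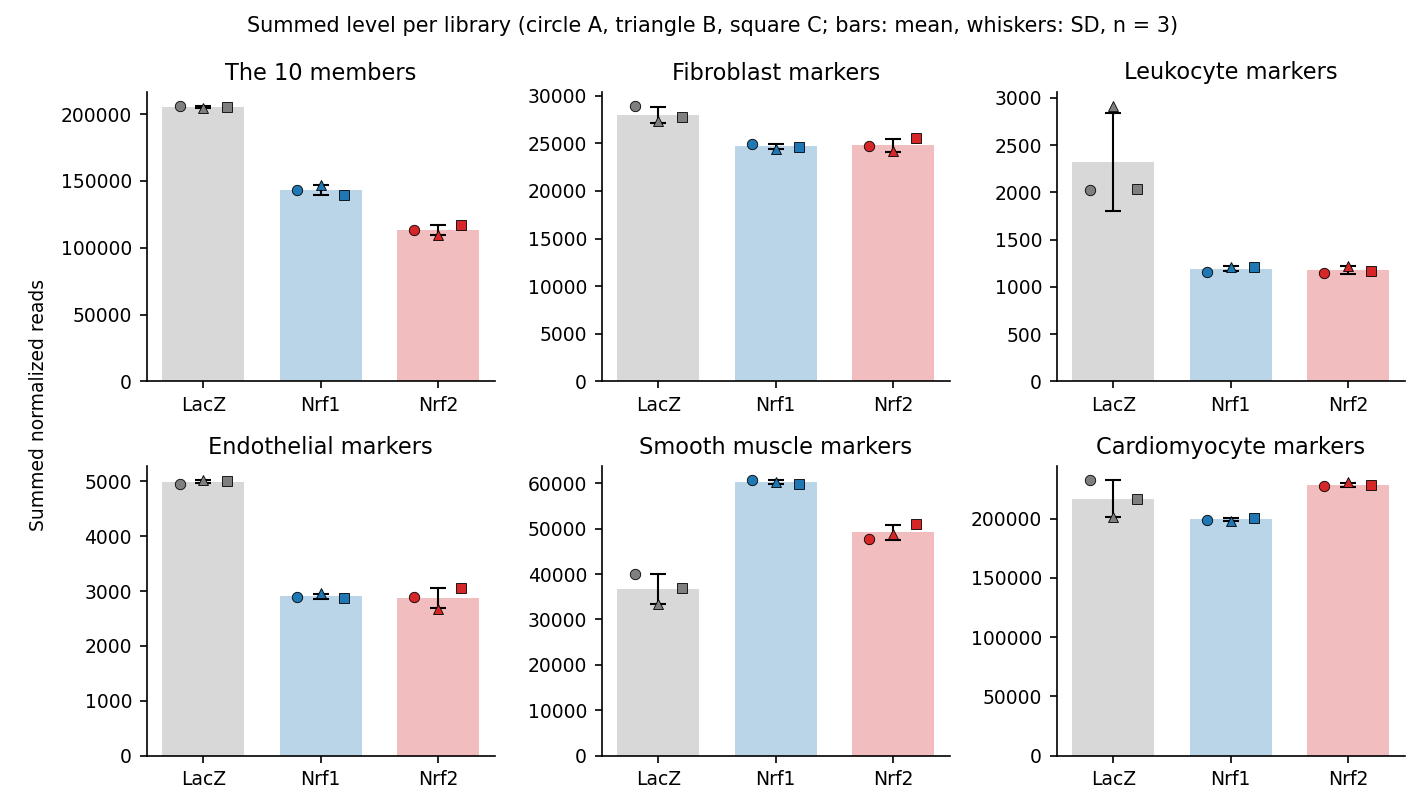
Summed normalized reads (vertical axis from 0) of the 10 members and of markers of fibroblasts, leukocytes, endothelium, smooth muscle and cardiomyocytes in each library (points), with the mean as a bar and the SD as whiskers (n = 3). The fibroblast, leukocyte and endothelial sums are lower in both overexpression groups than in LacZ, the smooth muscle sum is higher, and LacZ library B is high for leukocytes, at 2917.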

How the data were processed

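RNA of 9 NRVM libraries, 3 per group, was sequenced as stranded mRNA. Per the labels and the study's methods, HISAT2 2.0.4 placed the reads on the rat genome Rnor 6.0, SAMtools 0.1.18 dropped duplicates and featureCounts 1.6.0 gave counts per gene, with edgeR 3.20.5 named for the authors' comparisons. Removing duplicates from single-end reads can lower the highest levels, which was not tested. The labels give the organism as mouse, whereas the methods and genome build give rat. A reference of another species was therefore not used, and no sequences, gene lengths or coordinates are given.

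The authors deposited 3 tables, 1 per pair of groups. The signal the authors deposited is each group's mean of reads divided by size factors, scaled separately per table. The tables also hold the authors' fold changes and p-values, which were not used. In each table with LacZ, 26 rows whose symbols had turned into dates were left out, and 4 of these were repeated symbols. The number of unused columns of single samples was 0.

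Each group stands in 2 tables with different size factors, so the whole reads of its 3 libraries were solved for within the printed digits. This gave 1 solution for 100% of the genes in both tables (14657 in LacZ, 14579 in Nrf1, 14746 in Nrf2), after the mean of the pair had settled *Fn1* in LacZ. Intermediate steps were tested on simulated data. The solved reads were divided by the authors' size factors of each table and tested with limma 3.58.1 (R 4.3.3, trend) on log2(value + 1), keeping genes whose mean reached 10 in a group, with Benjamini-Hochberg adjustment over all of them. Calls needed an adjusted p under 0.05 and 1.5-fold between means. Pooled means were the planned base, and no count model was fitted to the solved reads, since the deposited unit is a mean. Levels of single libraries are reads divided by median-of-ratios size factors over all 9 libraries.

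The members and lists were chosen with earlier results of these data known. All members are named. In the other lists the 3 genes with the largest ratio at a mean of at least 100 are named per comparison with LacZ, and, as the most like gene, the nearest in the 2 log2 ratios. Further genes of the lists were named after their values were seen. A planned search of promoters was not run. Alternatives were other pseudocounts, filters, scalings, cutoffs and fits, and leaving out each library.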

Additional observations from a re-analysis of the deposited data

How the results depend on the processing

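For single members, 426 of 430 alternative values kept their direction and their side of the adjusted p threshold and 4 were no longer past it, all for *Spp1* or *Lum*: *Spp1* for Nrf2 over LacZ with a threshold of 0.01 (adjusted p = 0.011), *Spp1* for Nrf2 over Nrf1 with all 9 libraries in 1 fit, and *Lum* for Nrf2 over Nrf1 in that fit and without library B of Nrf1. Counts of called members stayed within 1 of the reported ones under every alternative fit: *Spp1* was lost for Nrf1 without LacZ library B, and *Postn* for Nrf2 over Nrf1 without Nrf2 library C. With a fold of 2 on the means, 5 members in place of 7 were lower for Nrf1 over LacZ, *Sparc* and *Spp1* dropping out. At that fold *Ctgf* dropped out for Nrf2 over LacZ, *Postn* was no longer higher for Nrf2 over Nrf1, and 0 members were lower there. No share of all genes at a fold of 2 is given here, so these counts cannot be set beside one. Past the fold of the means alone, all genes came to 1359 higher and 2072 lower for Nrf1 over LacZ, 1136 and 1270 for Nrf2 over LacZ, and 1418 and 594 for Nrf2 over Nrf1. With no filter they came to 2228 higher and 3593 lower for Nrf1 over LacZ, 2332 and 2325 for Nrf2 over LacZ, and 2995 and 1300 for Nrf2 over Nrf1. With a mean of at least 100 they came to 1021 lower for Nrf1 over LacZ, 665 higher and 576 lower for Nrf2 over LacZ, and 649 higher and 367 lower for Nrf2 over Nrf1. At that mean limma called, in place of 1953 lower for Nrf1 over LacZ, 1066 higher and 1125 lower for Nrf2 over LacZ and 1294 higher for Nrf2 over Nrf1, 1021 lower for Nrf1 over LacZ, 660 higher and 574 lower for Nrf2 over LacZ, and 644 higher for Nrf2 over Nrf1. These filters change how many genes enter. Leaving out LacZ library B for the other lists was an alternative chosen after seeing the data. No paired analysis was possible because the solved libraries could not be tied to the replicate numbers in the labels. Depth limits *Lum* most, which had 68 reads in its lowest library.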
